A study of Mus musculus with 4 samples.

Results

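The secreted cytokine gene Csf3 was examined together with its neighbours Psmd3, Med24 and Nr1d1, which lie beside it on mouse chromosome 11. The members were taken by name, as every row with 1 of these 4 symbols in either deposited peak list, together with every distinct peak between positions 98460000 and 98660000 of chromosome 11 in build mm9. They amount to 4 of the 7262 genes the lists name and to 7 peaks, of which 3 come from the 11907 peaks labelled with pyruvate and 4 from the 19338 peaks labelled without pyruvate.

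The peaks mark binding of MyoD in mouse myotubes, measured by ChIP-seq, in which DNA bound to a protein is isolated with an antibody and sequenced. Primary myoblasts of C57BL/6 mice, 2 weeks old, were turned into myotubes over 5 days, and the myotubes then spent 24 hours in differentiation medium that contained pyruvate or lacked it. Each condition had 1 MyoD ChIP library and 1 input. All samples shared the strain and the cell source, both ChIP libraries the antibody, and how many mice gave the cells is not stated in the labels. Conditions were taken from the sample titles, and the lists labelled with and without pyruvate are called the pyruvate list and the pyruvate-free list. The short code in the names of the deposited files could be read the other way round, and nothing measured here tests the titles. Each direction below is that of the titles alone. Read depth is unknown, and with 1 library a condition there was no replicate check and no test, so a site absent from a list could be bound at a level that was not detected.

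MyoD is a basic helix-loop-helix transcription factor that binds the E-box CANNTG as a dimer with an E protein and switches on muscle genes. Csf3 encodes G-CSF, a cytokine best known for driving the formation of neutrophils through its receptor Csf3r and Jak-STAT signalling, and the factor named in the title of the series. Psmd3 encodes a subunit of the regulatory particle of the proteasome, Med24 a subunit of the Mediator complex that links transcription factors to RNA polymerase II, and Nr1d1 the nuclear receptor REV-ERB alpha, a repressor in the circadian clock.

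The 4 genes showed 3 patterns of binding. Psmd3 had a peak over its start in both lists. Nr1d1 had a wide peak inside the gene in the pyruvate list and none in the pyruvate-free list. Csf3 and Med24 had a narrow peak each in the pyruvate-free list and none in the pyruvate list. Over all genes named in the lists, 55.1% had a peak in both, 9.94% had it only in the pyruvate list and 35.0% only in the pyruvate-free list, so each of the 3 patterns is also found among many other genes. With peaks of at least 250 bases alone, or with the pyruvate-free list shortened by width to the length of the pyruvate list, Csf3 and Med24 had no peak left. A peak counted for a gene if it touched the gene body or a flank of 2000 bases, as the deposited rows give them.

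The Csf3 peak lay in the gap between Psmd3 and Med24, in the pyruvate-free list. It is at chr11:98561346-98561539 of mm9, 193 bases wide. Its row names a region of 2000 bases, from 98560577 to 98562576, as a flank of Csf3 (ENSMUSG00000038067), and lists the gene on the plus strand. A flank that ends at 98562576 is either the stretch just before the gene, which would then start at 98562577, or the stretch just after it, in which case Csf3 would have ended at 98560576.

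The side of the flank was inferred from the neighbours, whose spacing was nearer to an upstream flank. In the deposited rows the body of Psmd3 ends 3284 bases before the flank and the body of Med24 begins 3329 bases after it. Were the flank downstream, the end of Csf3 would lie 5329 bases before Med24. In the RefSeq gene table of GRCm38.p6, a later build used here for gene order and spacing only, the order is Psmd3, Csf3, Med24 and the end of Csf3 lies 966 bases before Med24. The whole distance from the end of Psmd3 to Med24 is 8619 bases in that table and 8612 bases in the deposited rows, so the spacing of the outer genes is nearly the same in both. With the flank upstream, Csf3 lies in the last 3328 bases before Med24, and with the flank downstream in the 3284 bases between Psmd3 and the flank. In the RefSeq table Csf3 begins 4205 bases past the end of Psmd3. By spacing, no part of that model would thus fall within those 3284 bases. The RefSeq Csf3 gene is 3449 bases long, predicted transcripts included, so neither placement holds the whole of that model. Taken as upstream, the peak reached from 1231 to 1038 bases upstream of the gene's start, with its centre 1134.5 bases upstream.

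Other gene models reach closer to this peak. Measured from the end of Psmd3, the peak ran from 4053 to 4246 bases in the deposited rows. In the RefSeq table the Csf3 gene begins 4205 bases past the end of Psmd3, which is between those distances, so by spacing alone the peak would span the start of that longer model rather than lie upstream of it. A long non-coding RNA gene, Gm38985, spans from 2 to 5532 bases past the same point. These distances were read within each annotation and no position was carried between builds, so the overlap of the peak with those models was not measured.

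**Figure D1:**
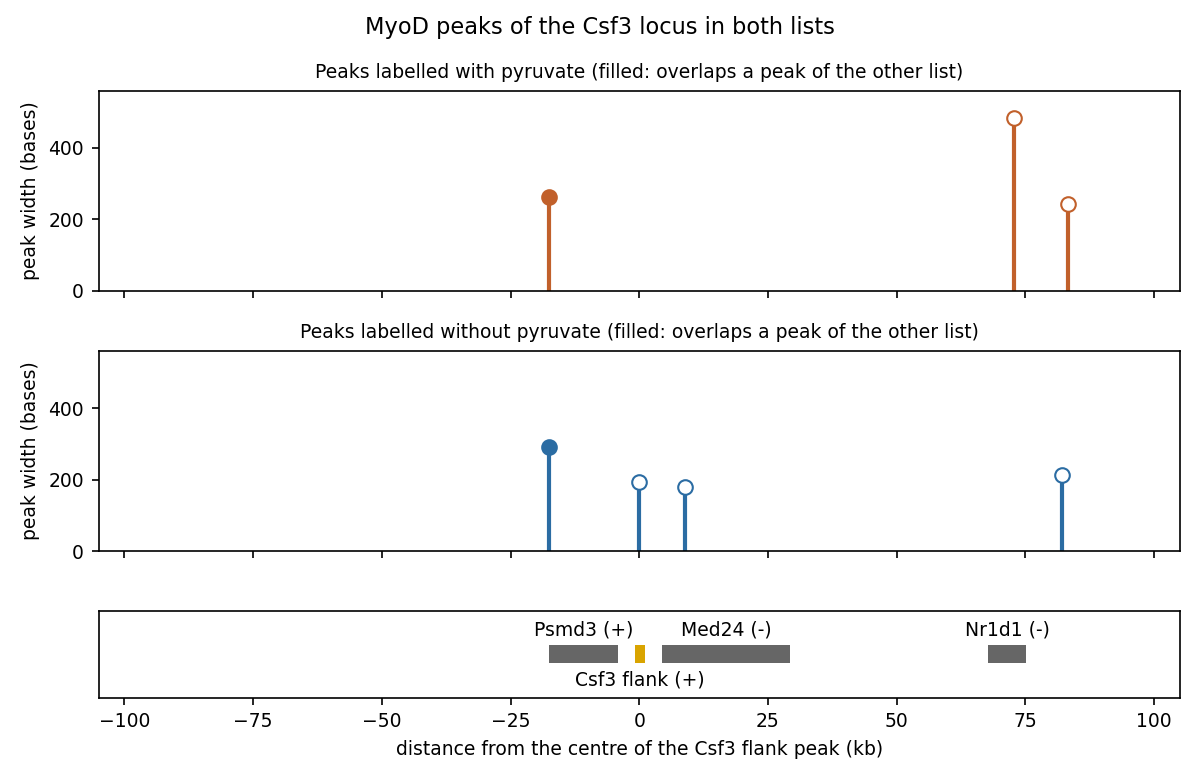
Peaks of the Csf3 locus by distance from the centre of the Csf3 flank peak (x axis, kb) and by width (y axis, bases), with the pyruvate list above the pyruvate-free list, and gene bodies and the Csf3 flank drawn to scale at the bottom. Filled circles mark the only overlapping pair, at Psmd3; the tallest bar is the Nr1d1 peak of 482 bases, and the pyruvate list has no peak between Psmd3 and Nr1d1.

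The sequence of the Csf3 peak itself was not analysed here. Of the 4 members, 1 had an entry in the RefSeq promoter table, which holds 250 bases before to 50 bases after a gene's start in GRCm38.p6. That entry, for Nr1d1 (chr11:98775328-98775627, minus strand), is shown first because it is the start of a member. The others are shown because a MyoD peak of the pyruvate-free list spanned the gene's start: Cdc6, a neighbour of the locus that loads helicases at replication origins (chr11:98907901-98908200, plus strand), and the Mediator subunit genes Med9 (chr11:59947964-59948263, plus strand) and Med27 (chr2:29346560-29346859, plus strand). These 3 were chosen after their values were seen. Capitals mark each match to CANNTG, which reads the same on both strands.
Nr1d1: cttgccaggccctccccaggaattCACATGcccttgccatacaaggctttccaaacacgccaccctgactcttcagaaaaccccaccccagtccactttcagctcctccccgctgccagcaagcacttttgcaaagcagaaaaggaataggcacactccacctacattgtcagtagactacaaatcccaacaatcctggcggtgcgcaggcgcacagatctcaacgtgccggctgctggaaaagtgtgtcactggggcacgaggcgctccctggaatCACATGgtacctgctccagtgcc
Cdc6: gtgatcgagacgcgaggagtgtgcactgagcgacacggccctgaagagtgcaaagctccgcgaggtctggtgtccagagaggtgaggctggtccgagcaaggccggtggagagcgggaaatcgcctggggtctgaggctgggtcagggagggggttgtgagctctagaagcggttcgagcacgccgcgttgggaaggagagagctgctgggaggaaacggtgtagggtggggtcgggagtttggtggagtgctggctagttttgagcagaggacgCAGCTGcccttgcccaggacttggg
Med9: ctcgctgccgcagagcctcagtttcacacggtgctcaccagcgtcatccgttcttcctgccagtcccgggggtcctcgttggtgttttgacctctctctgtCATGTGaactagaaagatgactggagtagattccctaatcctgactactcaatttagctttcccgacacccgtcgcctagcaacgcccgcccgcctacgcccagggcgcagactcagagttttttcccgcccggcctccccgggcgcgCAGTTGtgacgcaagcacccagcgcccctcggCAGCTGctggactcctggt
Med27: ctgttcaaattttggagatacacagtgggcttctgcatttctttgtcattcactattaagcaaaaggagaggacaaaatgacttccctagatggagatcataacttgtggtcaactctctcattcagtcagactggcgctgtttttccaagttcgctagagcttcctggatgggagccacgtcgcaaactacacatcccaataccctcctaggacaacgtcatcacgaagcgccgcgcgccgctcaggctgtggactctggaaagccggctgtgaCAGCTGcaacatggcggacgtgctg

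The Nr1d1 window held 2 matches, both CACATG, which begin 226 bases before the start and 27 bases after it. No peak of either list lay in this window as placed on the mm9 start of the gene. The windows of Cdc6, Med9 and Med27 each held 1 CAGCTG, a form of the E-box that MyoD is known to prefer, and it began 25, 31 and 25 bases after the RefSeq start. Among 27025 genes with an entry, 72.1% of first-listed promoters held a CANNTG and 16.1% a CAGCTG, which is a case of CANNTG and is counted in both shares. A match is a description of the letters, and the annotated starts of the 2 builds were not compared.

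At Psmd3 the lists gave nearly the same site. The peak was at chr11:98543794-98544057 (263 bases) in the pyruvate list and at chr11:98543789-98544081 (292 bases) in the pyruvate-free list. The first lay wholly inside the second. It reached from 74 bases before to 189 bases after the start of Psmd3 (ENSMUSG00000017221, plus strand, 98543868 to 98557293), and the second from 79 before to 213 after. A peak of both lists spanned the start of 123 of the 5793 genes with a listed body, or 2.12%. The same peaks also touched a flank (98542235 to 98544234) of a minus-strand gene without a symbol in the files, ENSMUSG00000085955.

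The width at Psmd3 was 29 bases smaller in the pyruvate list (difference -29). Over all 8555 overlapping pairs, the median of that difference was -22 bases, with quartiles at -74 and 30, so the Psmd3 pair lay within the middle of the pairs. The centres were 9.5 bases apart, against a median of 17.5 (quartiles 8 and 34). No measure of binding strength was left in the files, so widths and positions are all that can be compared.

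Med24 lies on the minus strand, just beyond Csf3 and facing it tail to tail. Its peak was found in the pyruvate-free list alone, at chr11:98570336-98570515, and was 179 bases wide. It lay within the body of the gene (ENSMUSG00000017210, 98565905 to 98590749), from 20234 to 20413 bases past its start, or 81.8% of the way through, and 4431 bases from its 3' end. The peak was therefore nearer to the end that faces Csf3 than to the promoter of Med24, with its centre 8.98 kb from that of the Csf3 peak. It also touched a flank of a second gene without a symbol, ENSMUSG00000088169. The nearest peak of the pyruvate list was the one at Psmd3, 26279 bases away.

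Nr1d1 carried the widest peak of the locus. The peak was at chr11:98634059-98634541 in the pyruvate list, 482 bases wide, and lay from 2106 to 2588 bases past the start of the gene (ENSMUSG00000020889, minus strand, 98629246 to 98636647), 31.7% of the way through it. The pyruvate-free list had no peak in Nr1d1 or its flanks, and its nearest peak was 8948 bases away. Thra, the thyroid hormone receptor gene whose 3' end overlaps that of Nr1d1 on the other strand, was named in neither list.

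A further peak lay upstream of Nr1d1 in each list, outside every listed gene region. It was at chr11:98644680-98644922 (242 bases) in the pyruvate list, from 8033 to 8275 bases before the start of Nr1d1. In the pyruvate-free list it was at chr11:98643489-98643703 (214 bases), from 6842 to 7056 bases before the start. These peaks were 977 bases apart and did not overlap. The RefSeq table lists a long non-coding RNA gene, Gm31862, from 34 to 8351 bases beyond that end of Nr1d1 and the next protein-coding gene, Msl1, 18131 bases beyond it, again as spacing within GRCm38.p6.

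The locus peaks differed in how wide they were for their list. In the pyruvate list, whose median width was 250 bases, the Nr1d1 peak stood at percentile 95.3 of widths, the Psmd3 peak at 56.1 and the peak upstream of Nr1d1 at 45.8. In the pyruvate-free list, with a median of 241 bases, Psmd3 stood at 71.4 and the peak upstream of Nr1d1 at 36.3. Csf3 was at 24.3 and Med24 at 16.8 there. No peak was narrower than 169 bases in the pyruvate list or than 144 bases in the pyruvate-free list.

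**Figure D2:**
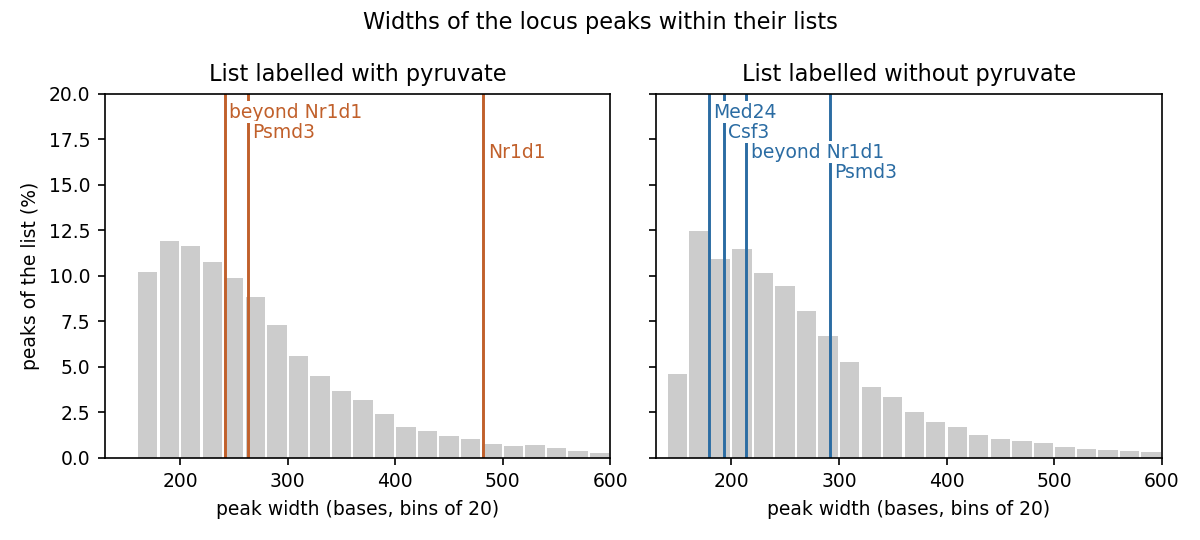
Peak widths (x axis, bases, bins of 20; the widest peaks are not shown) as a share of each list (y axis, percent; grey bars), with the locus peaks as coloured lines; "beyond Nr1d1" is the peak upstream of that gene. Nr1d1 lies in the tail of its list at 482 bases, and Csf3 (193 bases) and Med24 (179 bases) lie among the narrow peaks of theirs.

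The share of peaks found again in the other list went up with width, so each locus peak was set beside peaks within 10 bases of its own width. Of all peaks, 71.8% of those labelled with pyruvate and 44.2% of those labelled without overlapped the other list by at least 1 base. For the width of the Nr1d1 peak the share was 85.1% (86 of 101 peaks, 95% exact binomial interval 76.7 to 91.4). Within 5 bases of that width it was 73.2% (30 of 41 peaks, interval 57.1 to 85.8). Most peaks as wide in that list therefore had a partner and the Nr1d1 peak had none. Of the 3352 peaks without a partner there, 52 were as wide as it or wider, or 1.55%.

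For the width of the Csf3 peak the share was 22.8% (503 of 2205 peaks, interval 21.1 to 24.6). Most peaks as narrow in that list therefore lacked a partner, as the Csf3 peak did. The share was 21.0% (454 of 2162, interval 19.3 to 22.8) for the Med24 width. At the width of the peak upstream of Nr1d1 it was 72.1% in the pyruvate list and 29.7% in the pyruvate-free list. At the Psmd3 widths it was 77.2% in the pyruvate list and 59.0% in the pyruvate-free list. The intervals cover counting error only.

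**Figure D3:**
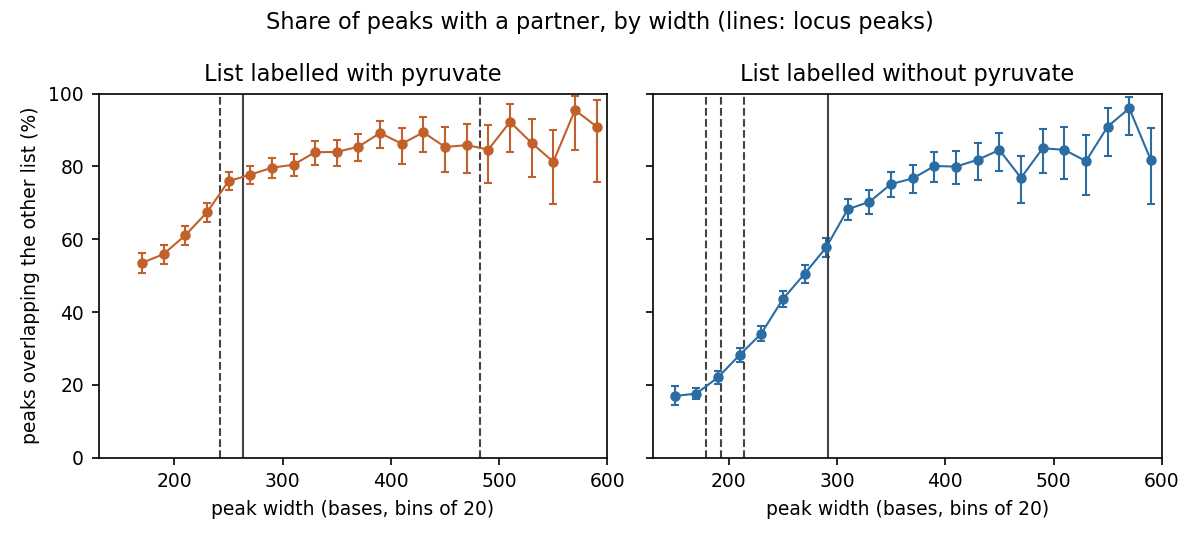
Share of peaks that overlap a peak of the other list (y axis, percent) by width (x axis, bases, bins of 20; the widest peaks are not shown) with 95% exact binomial intervals, for each list. Vertical lines mark the locus peaks, solid for the Psmd3 pair and dashed for peaks without a partner; the dashed lines at 179 and 193 bases meet the curve near 20%, and that at 482 bases meets it above 80%.

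Distance to the other list gave a further description. The Csf3 peak lay 17289 bases from the nearest peak labelled with pyruvate, and 31.6% of the unpartnered peaks in its list lay as near or nearer. The same share was 39.3% for Med24. For Nr1d1, in the pyruvate list, it was 35.2%. The peaks upstream of Nr1d1, 977 bases apart, were nearer than most, with 8.98% of unpartnered peaks labelled with pyruvate and 4.87% of those labelled without lying as near.

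The interval was chosen around genes with peaks, so its peak count is given as a description. The pyruvate list had 3 peaks in these 200 kb, and 12.2% of the 13156 consecutive windows of that size held as many or more. The pyruvate-free list had 4, and 14.8% held as many or more, while the median window held 0 in both lists. Over the windows that held a peak of either list, the median was 1 peak in the pyruvate list and 2 in the pyruvate-free list. The combination of 3 and 4 peaks was seen in 126 windows.

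Other genes had the peak pattern of Csf3 as well. In all, 605 genes, or 8.33% of those named, shared its pattern of exactly 1 peak, in a flank, in the pyruvate-free list and none in the other list. Widths over these genes had a median of 208 bases (quartiles 174 and 247), and 228 of the peaks were narrower than that of Csf3. Ranked by how far the width of their peak was from that of the Csf3 peak, within the pyruvate-free list, the nearest genes with a symbol were Syngr1 (193 bases), 2900060B14Rik (192 bases), Atp6ap2 (194 bases), Fam54a (192 bases) and Cd209f (195 bases). The side of the flank is not listed for such genes.

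Further along the chromosome, a list of 18 neighbouring genes from Ikzf3 to Rara was looked up. Of these 7 were named, 3 in both lists (16.7% of the 18), 1 only in the pyruvate list (5.56%) and 3 only in the pyruvate-free list (16.7%). The shares over all RefSeq protein-coding genes were 15.2% in both lists, 2.62% only in the pyruvate list and 9.26% only in the pyruvate-free list. The list was drawn around members with peaks, so nothing is read from its share. Beside the 4 members these were Rapgefl1, Cdc6 and Rara. Rapgefl1, a relative of Rap exchange factors, had an overlapping peak in both lists, 234 bases wide in the pyruvate list and 231 in the pyruvate-free list, inside the gene and about 3 kb from its start. Cdc6 had a peak of 230 bases in the pyruvate-free list alone, from 50 bases before to 180 bases after its start. A start was spanned in that list alone in 2.87% of genes with a listed body. Rara, the retinoic acid receptor alpha gene, had peaks of 193 and 172 bases in the pyruvate list and 1 of 170 bases in the pyruvate-free list, none overlapping. The gene bodies and 2000-base flanks of Ikzf3, Zpbp2, Gsdma, Gsdma2, Gsdma3, Lrrc3c, Ormdl3, Thra, Msl1, Casc3 and Wipf2 had no row in either list. The nearest peak outside the interval was 2907 bases beyond its lower edge, at chr11:98456864-98457093 in the pyruvate list (229 bases), in no gene region.

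The partners of the 4 members in their own pathways were described from 4 lists of related genes. The lists also hold the 4 members themselves, which all had peaks, so nothing is read from the pooled shares. Of the 102 genes on the 4 lists, 20 (19.6%) had peaks in both, 4 (3.92%) only in the pyruvate list and 20 (19.6%) only in the pyruvate-free list. Over RefSeq protein-coding genes these shares were 15.2%, 2.62% and 9.26%. At equal list length, taking the widest peaks of the pyruvate-free list, 17 of the 102 genes (16.7%) were in both lists, 7 (6.86%) in the pyruvate list alone and 5 (4.90%) in the pyruvate-free list alone. RefSeq protein-coding genes at that setting had shares of 13.0% in both lists, 4.87% in the pyruvate list alone and 4.50% in the pyruvate-free list alone. The order of the single-list shares thus changed over RefSeq genes as it did over the 4 lists, and shortening the pyruvate-free list lowers its share by construction.

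For the G-CSF axis, 6 of 22 genes (27.3%) had peaks in both lists. Only in the pyruvate list there were 0, and only in the pyruvate-free list 5 (22.7%). Over RefSeq protein-coding genes the shares were 15.2% in both lists, 2.62% only in the pyruvate list and 9.26% only in the pyruvate-free list. The axis list holds Csf3 itself and was chosen with earlier results of these data known, so nothing is read from its shares. No row named Csf3r, the receptor of G-CSF, or the ligands Csf1 and Csf2. Among ligands, Il34, which acts on the CSF-1 receptor, had peaks of up to 249 bases in the pyruvate list and 342 in the pyruvate-free list. Il5 (171 bases) had one only in the pyruvate-free list. Of the signalling genes, the kinase gene Jak2 had a peak of 281 bases in the pyruvate list and of 399 in the pyruvate-free list. Its relative Jak1 had 2 peaks in the pyruvate list and 4 in the pyruvate-free list, the widest 341 bases in each. The transcription factor gene Stat5b had peaks of 305 bases with pyruvate and 304 bases without, while its neighbour Stat5a had 3 peaks, up to 284 bases, only in the pyruvate-free list. Socs1, which encodes an inhibitor of Jak kinases, had a flank peak of 206 bases only there.

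The regulatory particle of the proteasome, 21 genes, had 4 genes with peaks in both lists, 1 only in the pyruvate list and 1 only in the pyruvate-free list. These were 19.05%, 4.76% and 4.76% of the 21, beside 15.2%, 2.62% and 9.26% of RefSeq protein-coding genes. This list holds Psmd3 itself and was chosen with earlier results of these data known, so nothing is read from its shares. Besides Psmd3 the first group held Psmc3, an ATPase subunit (widest peak 423 bases with pyruvate and 321 without), Psmd1 (197 bases with pyruvate and 266 without) and the ubiquitin receptor Psmd4 (232 bases with pyruvate and 191 without). Psmd13 had a flank peak of 244 bases only in the pyruvate list and Psmd6 one of 151 bases only in the pyruvate-free list. Of the 3 with a listed body, Psmd3 alone had its start spanned.

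Of 33 Mediator genes, 1 carried peaks in both lists, 1 only in the pyruvate list and 12 only in the pyruvate-free list. Of the 14 with a peak, 85.7% had it only in the pyruvate-free list, beside 35.0% of all named genes. The Mediator list holds Med24 itself and was chosen with earlier results of these data known, so nothing is read from its shares. Of all 33 genes the shares were 3.03% in both, 3.03% only with pyruvate and 36.4% only without. Over RefSeq protein-coding genes they were 15.2%, 2.62% and 9.26%. At equal list length the Mediator counts were 1 of 33 in both, 1 only with pyruvate and 4 only without. The RefSeq shares at that setting were 13.0%, 4.87% and 4.50%. The 12 were Med24 and, with wider peaks, Med14 (289 bases), Med13l (258), Med16 (238), Med12l (226), Cdk19 (199), Med20 (189), Med30 (188), Med25 (186) and Med9 (182), and, with narrower ones, the kinase module gene Cdk8 (166) and Med17 (144). Their peaks were narrow: the widest peak per Mediator gene had a median of 189 bases in the pyruvate-free list, beside 261 over all genes there. Med28 (171 bases) was the gene seen only with pyruvate. Med27 had 1 peak with pyruvate and 7 without, and 1 overlapping pair, 263 bases wide with pyruvate and 321 without. Its start was spanned, from 110 bases before to 113 after, only in the pyruvate-free list, as was that of Med9, from 62 before to 120 after.

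The clock list of 26 genes, which also held the thyroid hormone receptors, had 9 genes with peaks in both lists, 2 only in the pyruvate list and 2 only in the pyruvate-free list. These were 34.6%, 7.69% and 7.69% of the 26, beside 15.2%, 2.62% and 9.26% of RefSeq protein-coding genes. Of the genes on this list with a peak, Nr1d1 included, 69.2% were in the first group, beside 55.1% of all named genes. The clock list was likewise drawn around a member with a peak, so nothing is read from its shares. Arntl, which encodes BMAL1 and is a known target of REV-ERB alpha, had 2 peaks in each list, the widest 266 bases with pyruvate and 525 without. The period gene Per2 had a flank peak of 506 bases with pyruvate and 392 without. Hlf had peaks of up to 353 bases with pyruvate and 459 without, and Bhlhe40, a helix-loop-helix repressor, of up to 450 with and 301 without. Only Tef (169 bases) and Nr1d1 were seen with pyruvate alone, and Rorb (188 bases) and the cryptochrome gene Cry1 (180 bases) without pyruvate alone. The second nuclear receptor of this pair, Nr1d2, had no row. The widest peak per gene had a median of 309 bases in the pyruvate list and 301 in the pyruvate-free list, beside 267 bases in the pyruvate list and 261 in the pyruvate-free list over all genes.

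**Figure D4:**
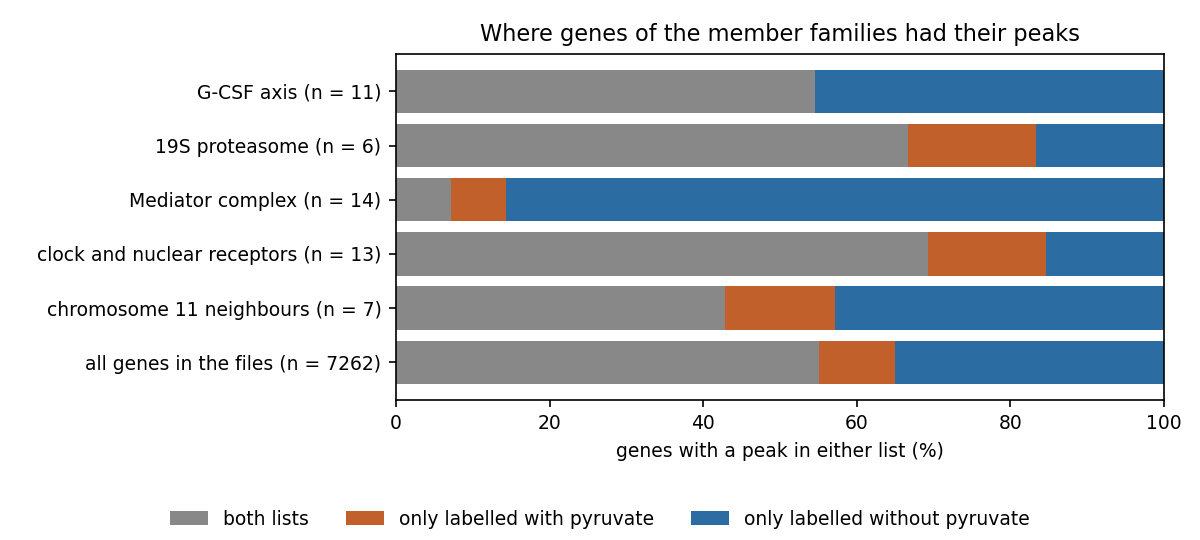
Genes with a peak in either list (x axis, percent of n) by whether the peak was in both lists (grey), only in the pyruvate list (orange) or only in the pyruvate-free list (blue), for 5 gene lists and for all named genes. Mediator genes show 85.7% in blue, all genes 35.0%. Each gene list was drawn around members with peaks, so nothing is read from its shares.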

How the data were processed

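The tools named are bcl2fastq 2.19, Bowtie2 2.1.0 and MACS2 2.1.1, with build mm9, per the submitters' processing notes. The calling threshold, input use and gene annotation are not stated there. The authors deposited 1 peak list for each MyoD ChIP library (antibody SC-760); inputs were not analysed here. Each row pairs a peak with a gene body or a flank of 2000 bases, per the file headers and values. The deposited fold enrichment column holds no value other than 0 (0 rows differ), so position and width (end minus start) were used, in coordinates as deposited.

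Rows were reduced to distinct peaks. Peaks overlapping by at least 1 base were partners. Bodies were told from flanks by length, and starts read from body and strand. Of 6147 symbols, 5943 matched RefSeq protein-coding genes (21900, GRCm38.p6). Genes were named by a fixed rule: the 4 members, genes touched in the interval, the neighbours, up to 4 genes per list and category by widest peak, and the 5 genes nearest to Csf3 in width. The other Mediator genes, Csf3r, Csf1, Csf2 and Nr1d2 were named after their values were seen. The members and lists were chosen with earlier results of these data known. Alternatives were stricter overlap, other width bands and windows, body or flank peaks alone, peaks of at least 250 bases, the widest peaks of the longer list and a RefSeq background. Overlap code was tested on simulated data. Computation used pandas 2.3.3 and numpy 2.4.6 in Python 3.11.15, with binomial intervals from scipy 1.17.1 and plots from matplotlib 3.10.9.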

Additional observations from a re-analysis of the deposited data

How the results depend on the processing

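With 1 library per condition and no depth, no value has a replicate error. Among the main results, 21 of 46 alternative values stayed close to the original (counts within 1.5 times, shares within the interval) and 25 moved, and among the shares of single peaks other than Csf3, 21 of 24 did and 3 moved. The Psmd3 pair remained the only overlapping pair of the interval under every overlap and width setting. The partner share at the Csf3 width ranged from 21.2% to 23.9%. At the Nr1d1 width it ranged from 73.2% to 86.4%, and the lowest of these was among the 3 that moved.

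Narrow peaks carry the locus in the pyruvate-free list. With peaks of at least 250 bases, or with that list shortened by width to the length of the other, it had 1 peak in the interval and 1 member with a peak (Psmd3), so Csf3 and Med24 drop out by construction. Within 50 kb of the Csf3 peak the pyruvate list had 1 peak and the pyruvate-free list 3, and within 200 kb each had 5, with 2 overlapping pairs, so the difference in count between the lists depends on the window. The share of windows with as many peaks was 10.7% with and 9.56% without pyruvate at 100 kb, 10.1% with and 22.1% without at 500 kb, and 23.4% with and 28.3% without over windows that hold a peak.

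Over the 4 related lists, 4 genes had peaks in both, 1 only with and 6 only without pyruvate from flanks alone, and 12 in both, 1 only with and 7 only without at 250 bases or more. No share over all genes is given for flanks alone or for the wider peaks, so nothing is read from these counts. At equal list length by width, 7 were only with and 5 only without, an order also seen over RefSeq genes (4.87% and 4.50%), and fewer peaks in that list lower its count by construction. Against RefSeq genes, with all peaks counted, the background shares were 15.2% in both lists, 2.62% only with and 9.26% only without pyruvate. With a peak in body or flank, 2108 genes had the pattern of Csf3. No paired analysis was possible because each condition has 1 library and no result comes from a test.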

Other observations

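Within 300 kb of the Csf3 peak, peaks of both lists lay about 1 kb apart without overlapping at 2 places, noticed after the values were seen. Upstream of Nr1d1 the gap was 977 bases. In Rara it was 1014 bases, between chr11:98792931-98793124 in the pyruvate list and chr11:98794138-98794308 in the pyruvate-free list.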
